A study of Arabidopsis thaliana with 3 samples.

Results

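The genes described here are 36 Arabidopsis genes whose transcripts accumulate quickly and briefly after touch, wounding, ethylene or a microbial signal. They were taken as a list of locus codes, drawn up with earlier results of these data known, and were looked up by code. Probes were found for 34 of them, out of 24660 genes measured in all, and the C2H2 zinc finger gene ZAT11 (AT2G37430) and the DREB factor gene DREB26 (AT1G21910) are not analysed here. Each of 3 arrays carried rosette RNA of lsm1a lsm1b, a double mutant of both LSM1 genes, beside rosette RNA of Col-0, the wild type, in 2 colours. Every value is thus a log ratio within an array, and is read as base 2. The labels call the 3 arrays biological replicates. They put the mutant RNA in Cy3 on arrays 1 and 3 and in Cy5 on array 2. Both genotypes carry the same growth labels, which give rosettes of 2-week-old plants from a 22 °C long day (16 h light, 8 h dark) in one place, and 3-week-old plants held for 1 day at 4 °C in another. The labels name neither the alleles nor the number of plants pooled per array. The ratios are read as lsm1a lsm1b over Col-0, which is the likely and not a certain direction. If it runs the other way, every higher and lower below turns round.

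Touch, wounding and elicitors are known to raise cytosolic calcium and to activate mitogen-activated protein kinases within minutes. Calmodulin-like proteins bind the calcium, the kinases phosphorylate ethylene response factors and other regulators, and these switch a first set of genes on. Many of these transcripts are also known to decay fast. LSM1A and LSM1B encode the subunit that distinguishes the cytoplasmic LSM ring from the nuclear one, and this ring helps to decap messenger RNAs and so to start their decay. The question put to the data was how these transcripts stood in the mutant, and whether array 2 differed from arrays 1 and 3. Decay itself was not measured.

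No early-response gene passed the test of its mean ratio, and the 3 arrays disagreed about the genes as a group. On array 1 their median log2 ratio was -0.10, with 11 of 34 above 0, against 50.8% of all genes. On array 2 the median was 0.54 and on array 3 it was 0.44. Above 0 were 27 of 34 on each, against 51.3% of all genes on array 2 and 48.6% on array 3. All 24660 genes had medians of 0.01, 0.01 and 0.00 on arrays 1, 2 and 3. For these genes array 1, and not only the dye-swapped array 2, lay to one side: array 1 had the lowest ratio of the 3 arrays in 29 of 34 genes, against 32.8% of all genes, and the highest in 0 of 34, against 34.1%. Array 3, which shares its dye orientation with array 1, lay above array 1 in 33 of 34 genes, against 46.4% of all genes. The exception was PUB22. Array 2 was lowest in 4 of 34, against 37.9% of all genes, and array 3 in 1 of 34, against 27.6%. Array 3 was highest in 10 of 34, against 22.5%. The comparison of arrays planned beforehand was array 2 against arrays 1 and 3. These counts of the order of arrays were chosen after seeing the data.

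**Figure D1:**
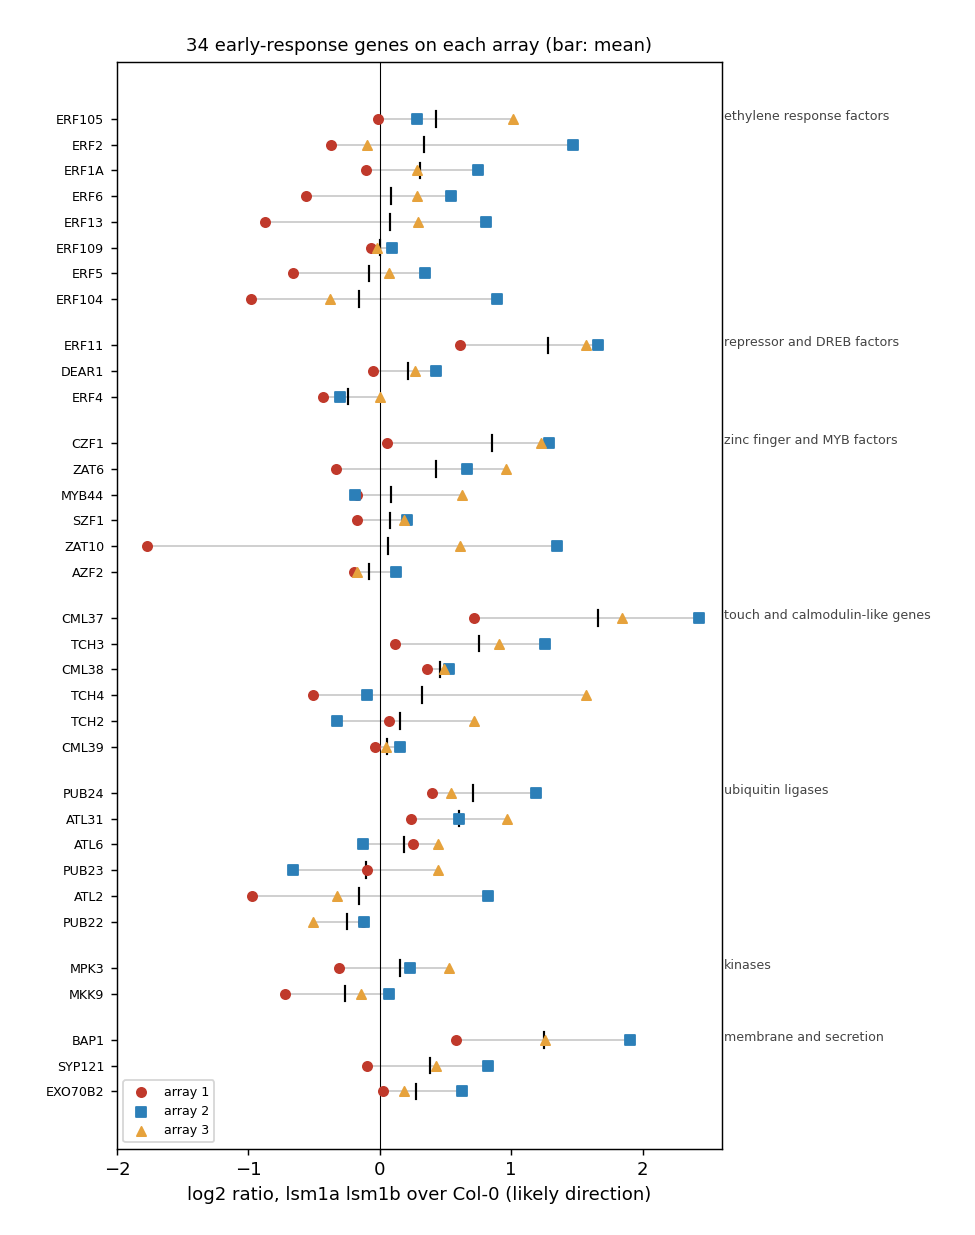
Each row is 1 of the 34 early-response genes, grouped by role, and the horizontal axis is the log2 ratio of lsm1a lsm1b over Col-0. Circles, squares and triangles are arrays 1, 2 and 3, the short black bar is their mean, and the circle of array 1 is the leftmost mark in 29 of 34 rows.

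Over the 3 arrays, the mean log2 ratios of the 34 genes ran from -0.27 for MKK9 to 1.66 for CML37. The median mean was 0.17, against 0.01 for all genes. Means above 0 numbered 25, against 51.4% of all genes, means below 0 numbered 8, against 47.7%, and 1 was at 0. Ratios above 0 on all 3 arrays were found in 9 of 34 genes, against 19.7% of all genes. A mean of at least 0.5 was reached by 7 genes, or 20.6%, against 6.29% of all genes, and 0 reached -0.5 or less, against 5.26%. In limma's test of the mean against 0, 0 of 34 had an adjusted p under 0.05, while 298 of 24660 genes (1.21%) did. At an unadjusted p under 0.05 the count was 8 of 34 (23.5%), all higher in the mutant, against 20.1% of all genes in either direction and 10.6% in that direction. The median standard deviation (SD) over arrays was 0.49 for these genes and 0.185 for all genes. In rosettes, more cells with a transcript and more transcript per cell cannot be told apart.

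**Figure D2:**
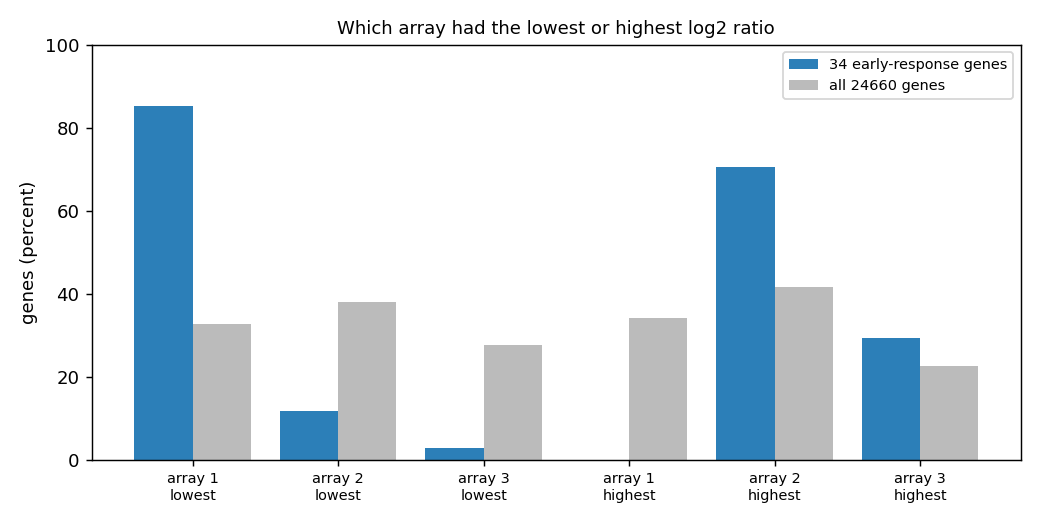
Bars give the percentage of genes in which the named array had the lowest (left) or the highest (right) log2 ratio of the 3 arrays, for the 34 early-response genes and for all 24660 genes. Array 1 was lowest in 85.3% of the early-response genes and in 32.8% of all genes, and array 2 was highest in 70.6% and 41.6%.

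Ethylene response factors of the activator type bind the GCC box of defence and stress promoters. All 8 of them had their lowest gene value on array 1, against 32.8% of all genes. Their medians were -0.47, 0.64 and 0.18 on arrays 1, 2 and 3. Above 0 on all 3 arrays were 0 of 8, against 19.7% of all genes. ERF2 had a log2 ratio of 1.47 on array 2, against -0.37 and -0.10 on arrays 1 and 3. ERF104, a substrate of the kinase MPK6, had 0.89 on array 2, against -0.98 and -0.38 on arrays 1 and 3. For both genes array 2 lay on the other side of 0 from the other arrays, so that their means, 0.33 ± 0.99 and -0.16 ± 0.95 (SD, n = 3 arrays), stand for none of the arrays. ERF13 behaved otherwise, with 0.81 on array 2 against -0.87 on array 1 and 0.29 on array 3, which left array 1 alone below 0. ERF5 and ERF6, close relatives that act in pathogen defence and in the restraint of leaf growth under stress, had that same order. ERF5 stood at 0.34 on array 2, against -0.66 and 0.07 on arrays 1 and 3, and ERF6 at 0.54, against -0.57 and 0.29. ERF105 (AT5G51190), a factor known from cold responses, was instead highest on array 3, with 1.02 there, 0.28 on array 2 and -0.02 on array 1. Its 2 probes differed in sign on array 1, with 0.33 and -0.36. They read 0.25 and 0.31 on array 2, so the first probe was lowest there. ERF109, listed as RRTF1 and known from redox and jasmonate responses, was near 0 throughout, between -0.07 and 0.09.

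ERF1A, listed as ERF-1, was the one gene here with 4 probes, and they did not move alike. Its gene value was 0.75 on array 2, against -0.11 and 0.29 on arrays 1 and 3. On array 2, probes A_84_P20535 and A_84_P869292 read 1.61 and 1.16, whereas A_84_P729457 and A_84_P796144 read 0.03 and 0.19. The 4 probe means lay between 0.03 and 0.64. How far each probe reports the ERF1A transcript was not tested.

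Repressors and a DREB factor made up the next set. ERF11, whose EAR motif makes it a repressor of ethylene and other responses, had the second largest mean of the 34 genes. Its ratio was 1.66 on array 2 and 1.57 on array 3, against 0.61 on array 1, a mean of 1.28 ± 0.58 (SD, n = 3 arrays) or 2.43-fold, with a limma adjusted p of 0.0862. All 3 arrays were above 0, and array 1 was the lowest. ERF4, another EAR repressor, differed from ERF11 in the sign of its mean, -0.25 ± 0.23. It had -0.44 on array 1, -0.31 on array 2 and 0.01 on array 3, where its 2 probes read -0.15 and 0.16. CEJ1, also called DEAR1, a cold-induced DREB protein with an EAR motif, stood at 0.43 on array 2 and 0.27 on array 3, against -0.05 on array 1.

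Among zinc finger and MYB factors the gap between arrays was widest for ZAT10, listed as STZ, a C2H2 repressor induced by cold, salt, wounding and strong light. It had -1.77 on array 1, the lowest single value of all 34 genes, against 1.35 on array 2 and 0.61 on array 3. That is 3.41-fold lower in the mutant on array 1, 2.55-fold higher on array 2 and 1.53-fold higher on array 3, and the mean of 0.06 ± 1.63 (SD, n = 3 arrays) describes none of them. ZAT6, a C2H2 factor of phosphate and stress responses, had the same split with -0.33 on array 1, against 0.66 and 0.96 on arrays 2 and 3. CZF1, a CCCH tandem zinc finger gene of salt stress and defence, was level on array 1 at 0.06 and stood at 1.29 and 1.23 on arrays 2 and 3, and both of its probes were lowest on array 1 (mean 0.86 ± 0.69, adjusted p = 0.201). Its relative SZF1 stood at -0.17 on array 1, against 0.21 and 0.19 on arrays 2 and 3. The 3 probes of SZF1 read -0.37, 0.04 and -0.18 on array 1. The second was highest there, with 0.02 and -0.12 on arrays 2 and 3. AZF2, listed as ZF2, a repressor of abscisic acid and auxin responses, stayed between -0.19 and 0.12 in its gene value. Array 1 was its lowest array at -0.19, against -0.17 on array 3. On array 1 its 3 probes read -0.41, 0.25 and -0.42. The second was highest there, with -0.14 and -0.05 on arrays 2 and 3. MYB44, listed as MYBR1, a regulator of abscisic acid and wound responses, was at 0.63 on array 3, against -0.18 and -0.19 on arrays 1 and 2. Its 3 probes spread on array 3, with 1.36, 0.08 and 0.44.

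Touch and calmodulin-like genes held the largest mean of the list. CML37, a calcium sensor that promotes jasmonate responses to wounding and herbivory, had 2.43 on array 2 and 1.84 on array 3, against 0.72 on array 1. Its mean was 1.66 ± 0.87 (SD, n = 3 arrays), or 3.16-fold, with an adjusted p of 0.0998, and its 2 probes had means of 1.96 and 1.37. TCH3, a calmodulin-like protein with several calcium-binding domains, had 1.26 on array 2 and 0.91 on array 3, against 0.12 on array 1 (mean 0.76 ± 0.58, adjusted p = 0.19). TCH4, an endotransglucosylase that remodels cell wall xyloglucan after touch, was high on array 3 alone. It stood at 1.57 on array 3, against -0.51 and -0.10 on arrays 1 and 2, so that array 3 exceeded array 1 by 2.08 on the log2 scale. TCH2, a calmodulin-like gene active in flowering and nitric oxide signalling, stood at 0.72 on array 3, against 0.07 and -0.32 on arrays 1 and 2. On array 2 its 3 probes read -1.07, 0.52 and -0.42 and so differed in sign. CML38 was steady, with 0.36, 0.53 and 0.49 on arrays 1, 2 and 3 (mean 0.46 ± 0.09, adjusted p = 0.0872), and had one of the smallest SDs of the list. CML39 (AT1G76640), its neighbour, lay between -0.04 and 0.15.

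Ubiquitin ligases mark proteins for breakdown and restrain or adjust immune signalling. They showed the least common order, with array 1 lowest in 3 of 6, against 32.8% of all genes. PUB22, PUB23 and PUB24 are U-box ligases that act together to dampen defence responses, yet their ratios differed in sign. PUB24 stood at 1.19 on array 2, against 0.40 and 0.54 on arrays 1 and 3 (mean 0.71 ± 0.42, adjusted p = 0.138). PUB23 had its lowest value on array 2, -0.66, against -0.10 and 0.44 on arrays 1 and 3. PUB22 was below 0 on all 3 arrays, with -0.13, -0.12 and -0.51 on arrays 1, 2 and 3, and was the only one of the 34 to be so, against 18.0% of all genes. Its 2 probes differed, with 0.07 and -0.32 on array 1, -0.06 and -0.18 on array 2, and -0.71 and -0.31 on array 3. Only the first of these probes lay lower on array 3 than on array 1. Of the RING-type ATL ligases, ATL2, an early chitin-induced gene, had 0.82 on array 2, against -0.98 and -0.33 on arrays 1 and 3, and its 2 probes read 0.84 and 0.80 on array 2, against -0.95 and -1 on array 1 and -0.30 and -0.35 on array 3. ATL31, listed as CNI1, which acts in the carbon and nitrogen balance, stood at 0.97 on array 3 and 0.60 on array 2, against 0.24 on array 1 (mean 0.60 ± 0.37, adjusted p = 0.148). ATL6, its closest relative, had 0.25, -0.13 and 0.44 on arrays 1, 2 and 3.

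In their gene values, the kinases and the membrane proteins had array 1 lowest in 5 of 5, against 32.8% of all genes. MPK3, a mitogen-activated protein kinase of stress and defence signalling, had 0.53 on array 3 and 0.23 on array 2, against -0.31 on array 1. MKK9, a kinase that activates MPK3 and MPK6, had 0.07 on array 2 and -0.15 on array 3, against -0.72 on array 1. Its 3 probes read -1.45, 0 and -0.72 on array 1, and the second was lowest on array 3, at -0.27. BAP1, a C2-domain membrane protein that restrains cell death, had the third largest mean. It stood at 1.90 on array 2 and 1.26 on array 3, against 0.58 on array 1 (mean 1.25 ± 0.66 or 2.37-fold, adjusted p = 0.104). SYP121, the syntaxin of penetration resistance also called PEN1, had 0.83 on array 2 and 0.43 on array 3, against -0.10 on array 1. EXO70B2, an exocyst subunit and a target of PUB22, had 0.63 on array 2, against 0.02 and 0.18 on arrays 1 and 3. Its probe A_84_P853126 was lowest on array 3, at -0.02, against 0.13 on array 1.

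Array 2 was then set against the mean of arrays 1 and 3 for each gene. Array 2 is both the dye-swapped array and replicate 2, so these cannot be told apart, and the fit has 1 residual degree of freedom per gene, which is the gap between arrays 1 and 3. In limma, 0 of 34 early-response genes and 0 of 24660 genes passed at an adjusted p under 0.05 (0%), and the lowest adjusted p was 0.214. At an unadjusted p under 0.05 there were 5 of 34 (14.7%), all higher on array 2, against 19.2% of all genes in either direction and 9.84% in that direction. The median difference over the 34 genes was 0.43, against 0.02 over all genes, and 26 of 34 were above 0, against 51.7% of all genes. Array 2 lay above both other arrays in 24 of 34 genes, against 41.6% of all genes. With the arrays brought to 1 common spread, that count was 19 (55.9%, against 41.9% of all genes), while array 1 stayed lowest in 28 of 34 (82.4%, against 30.0%).

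The 5 genes with an unadjusted p under 0.05 did not pass after adjustment. The difference was 1.71 for ERF2, with a 95% interval of 1.13 to 2.28 (adjusted p = 0.214). It was 1.57 for ERF104 (0.55 to 2.59, adjusted p = 0.214), 1.47 for ATL2 (0.38 to 2.56, adjusted p = 0.222), 0.72 for PUB24 (0.27 to 1.17, adjusted p = 0.214) and 0.52 for EXO70B2 (0.06 to 0.99, adjusted p = 0.24). In these 5 genes arrays 1 and 3 differed by 0.14 to 0.65 on the log2 scale. The largest difference of all, 1.93 for ZAT10, had an interval of -1.81 to 5.67, because array 3 exceeded array 1 by 2.38 there. Array 2 lay below the mean of the others in 8 genes, against 47.7% of all genes, led by PUB23 at -0.83 (-1.76 to 0.10), TCH2 at -0.72 and TCH4 at -0.63.

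**Figure D3:**
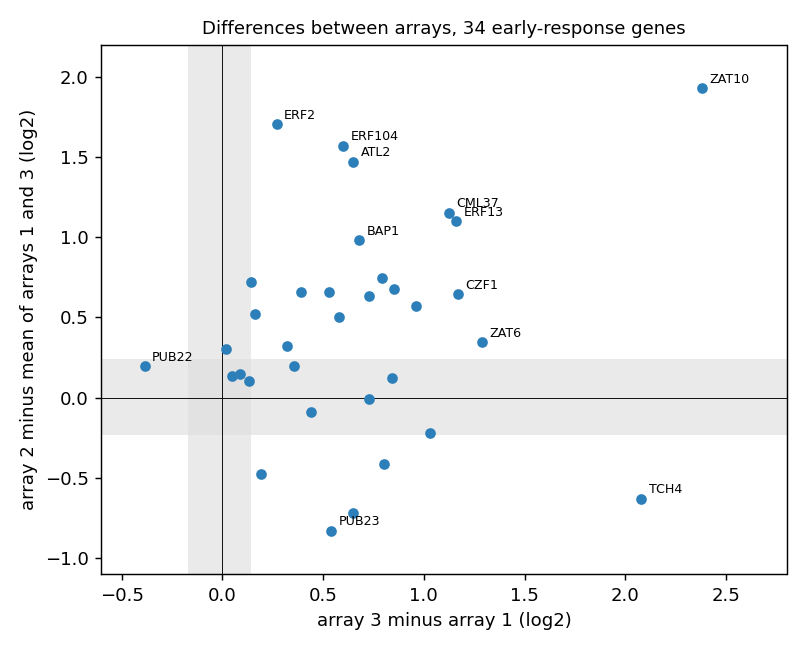
Each point is 1 of the 34 early-response genes, with the difference between arrays 3 and 1, which share a dye orientation, on the horizontal axis and the difference of array 2 from their mean on the vertical axis, both on the log2 scale. Grey bands hold the middle 50% of all genes on each axis, and 33 of 34 points lie right of 0.

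Arrays 3 and 1 both carried the mutant RNA in Cy3. The median of array 3 minus array 1 was 0.62 over the 34 genes, with a middle range of 0.28 to 0.85, against -0.02 and -0.17 to 0.14 over all genes. Array 1 lay at least 0.5 below both other arrays in 15 of 34 genes (44.1%), against 2.15% of all genes. Array 2 lay at least 0.5 above both others in 8 of 34 (23.5%), against 7.56%. Ratios below 0 on array 1 and above 0 on both arrays 2 and 3 were found in 12 of 34 genes (35.3%), against 6.91% of all genes. These are counts over 1 list, and whether arrays 1 and 3 differ could not be tested with 1 array each. Across the 34 genes, array 1 correlated with array 3 at r = 0.486 and with array 2 at r = 0.198, and arrays 2 and 3 at r = 0.443. The points of each correlation share their arrays and, for neighbouring relatives, possibly signal. Over all genes these values were 0.745, 0.427 and 0.452.

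Several of the genes sit beside a relative, which allows a look at pairs. ERF6 and ERF1A are adjacent coding genes in the RefSeq gene order, as are CML39 and CML38, and 1 coding gene lies between ERF2 and ERF5. All 4 ERF genes of these pairs had array 2 highest and array 1 lowest. ERF2 and ERF5 stood at 1.47 and 0.34 on array 2, at -0.37 and -0.66 on array 1, and at -0.10 and 0.07 on array 3, so that they parted most on array 2. PUB24 and SYP121, which are unrelated but have 2 coding genes between them, also shared that order. Whether the probes of related neighbours share signal was not tested. With 1 gene counted of each pair, array 1 was lowest in 25 of 30, against 32.8% of all genes.

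Other genes of the same pathways were followed in lists. Of all genes, 1.21% passed the threshold in the test of the mean. The 19 measured genes of ethylene synthesis and core signalling held 0 past the threshold and had a median mean of -0.03. Their medians were -0.18, 0.14 and -0.07 on arrays 1, 2 and 3. EFE, the ACC oxidase gene ACO4, had the largest absolute mean, 0.61 ± 0.28 (adjusted p = 0.108). EBF1, an F-box gene that turns over the ethylene factor EIN3, stood at -0.54 ± 0.65, and its probe means spread by 1.06. Of 14 other ERF and DREB factors, 1 passed: Rap2.6L, an ERF of tissue rejoining after cuts, had 0.66, 0.74 and 0.79 on arrays 1, 2 and 3 (mean 0.73 ± 0.07 or 1.66-fold higher in the mutant, adjusted p = 0.0479). With any 1 array left out, 0 of 24660 genes passed, so the call could not be checked in this way. With a dye term in the fit, Rap2.6L did not pass. EBP, an ERF gene of the group that senses low oxygen, stood at -0.68 ± 0.33.

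Early WRKY factors bind W boxes in defence promoters. They had array 1 lowest in 7 of 9 (32.8% of all genes) and array 2 highest in 8 of 9 (41.6%). Their medians were 0.15, 1.09 and 0.53 on arrays 1, 2 and 3, with 0 past the threshold. WRKY18 stood at 2.42 on array 2 and 1.27 on array 3, against 0.55 on array 1, and WRKY46 at 2.56 and 1.28, against 0.23. Other genes of the kinase cascades had array 1 lowest in 9 of 9, medians of -0.01, 0.58 and 0.12, and 0 past the threshold. MPK11, a stress-induced kinase gene, stood at 0.98 ± 0.77 and MKK2 at 0.31 ± 0.29. Among 9 other early response genes array 1 was lowest in 6, the medians were -0.52, 0.25 and 0.13, and 0 passed. DIC2, a mitochondrial carrier gene, stood at -0.53 ± 0.95 and CYP707A3, which breaks down abscisic acid, at -0.50 ± 0.19.

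Jasmonate genes of the early wound response gave a flatter picture, with medians of 0.03, 0.15 and -0.02 on arrays 1, 2 and 3. Array 1 was lowest in 7 of 11, against 32.8% of all genes, and 0 passed the threshold. AOC3, a jasmonate synthesis enzyme, stood at 1.08 ± 1.08, and JAZ1, a jasmonate repressor, at 0.74 ± 0.37. The CBF genes, CAMTA3 and ZAT12 had array 1 lowest in 4 of 5 and 0 past the threshold. ZAT12, listed as RHL41 and known from light and oxidative stress, had 1.65 on array 2 and 1.48 on array 3, against 0.42 on array 1, while CBF1, the cold-response activator, stood at -0.20 ± 0.26.

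Calmodulins and other calmodulin-like genes had another order. Array 1 was lowest in 1 of 11, against 32.8% of all genes. The medians were 0.75, 0.55 and 0.81 on arrays 1, 2 and 3. CAM3 passed the threshold with 0.86, 0.80 and 0.81 on arrays 1, 2 and 3 (mean 0.82 ± 0.03 or 1.77-fold higher in the mutant, adjusted p = 0.0424). With a dye term in the fit, CAM3 did not pass. Its 5 probe means spread by 1.27, and calmodulin genes are so alike in sequence that one gene's probe may pick up another's transcript. CAM1, the coding neighbour of TCH2, had 1.15, 0.39 and 1.08, and CAM2, which has 1 coding gene between it and TCH3, had 0.75, 1.18 and 0.27. CAM1 was highest on array 1 and TCH2 on array 3, and CAM2 was lowest on array 3 and TCH3 on array 1. CML41 and CAM6 had the largest means of the list, 1.30 ± 0.98 and 1.08 ± 0.26, and did not pass.

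**Figure D4:**
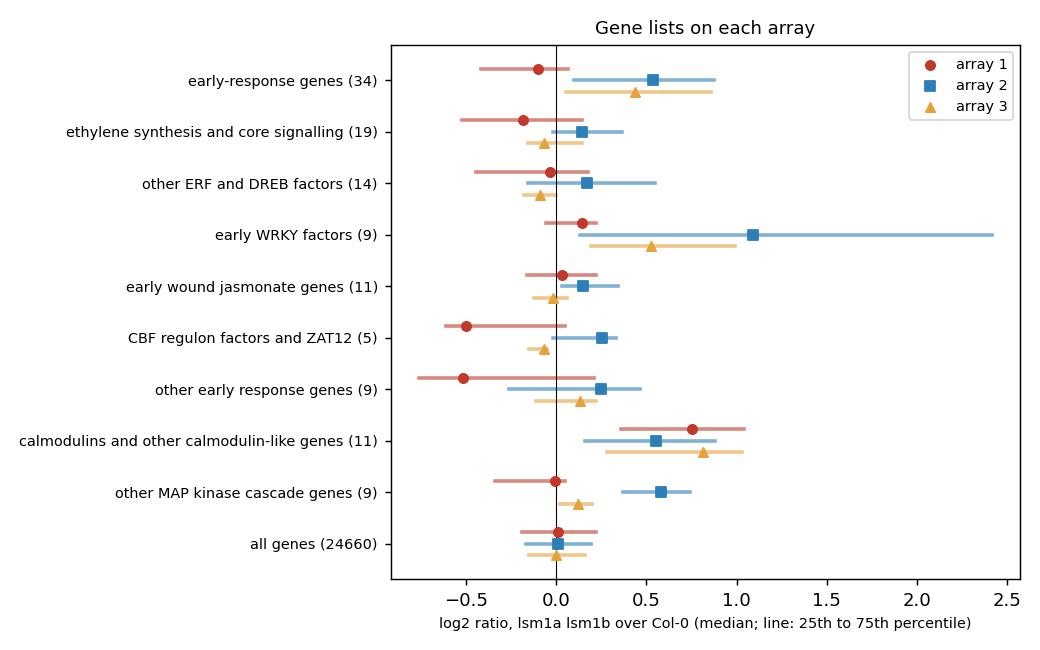
For the 34 early-response genes, the 8 related gene lists and all genes, marks give the median log2 ratio of lsm1a lsm1b over Col-0 on arrays 1, 2 and 3, and lines span the middle 50% of genes, with the number of genes in brackets. For the early-response genes array 1 is at -0.10, against 0.54 and 0.44 on arrays 2 and 3, whereas for calmodulins and other calmodulin-like genes the 3 medians lie between 0.55 and 0.81.

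Markers of other organs and cells were read on the same arrays. Ratios carry no level, so rosette identity could not be checked from defining markers. Of 4 root, 4 flower, 4 seed and 4 stomatal markers, 0 passed the threshold in each list. The flower markers were highest on array 2 in 4 of 4, against 41.6% of all genes. Medians of the flower markers were -0.12, 0.53 and -0.02 on arrays 1, 2 and 3. The root, seed and stomatal medians lay between -0.16 and 0.13 on all arrays. The part of these shifts in the values above was not tested.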

How the data were processed

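The authors' deposited table holds 1 normalized log2 ratio per probe and array. Limma is listed, without version, per the submitters' processing notes. Neither labels nor file say how background, normalization, log base and sign were handled. Base 2 was inferred from the range, -6.76 to 5.87, which does not settle it. Every fold value rests on that reading. Array 2, with dyes swapped, correlated with arrays 1 and 3 at r = 0.416 and 0.411 over all rows, so the signs already ran one way. They were read as mutant over Col-0 because channel 1 of every sample is the mutant. Without intensities, dim probes could not be told, and precision is limited by the number of arrays.

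Of 43656 rows, 55 control features were left out. The platform's annotation (it can be old) had no symbol for 9259 probes, 1 for 34342 and several for 0. These were updated with RefSeq genes of TAIR10.1, by accession for 32227 probes and by symbol for 2053. Matches conflicted for 37 and failed for 25. Probes were averaged per gene and array, giving 24660 genes. Of the 34 genes, 16 had 2 or more probes, whose means differed by at most 0.64.

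Tests used limma 3.58.1 in R 4.3.3 (lmFit, eBayes, two-sided, Benjamini-Hochberg over all genes, threshold 0.05): the mean against 0, and array 2 against arrays 1 and 3. Both fits were run on simulated ratios with 200 changed genes, which checked only that estimates followed the planted changes. The simulated noise held no dye or array effect shared between genes. Genes and lists were chosen with earlier results of these data known, and get counts and medians only. Genes given in full had an absolute mean of at least 0.5 or one of the 10 largest array 2 differences, and the others are given shortly. Of each other list, genes past the threshold and up to 2 with the largest absolute mean are named. CAM1 and CAM2 were named outside this rule, as neighbours. How separately the replicate plants were grown is not stated, so p-values measure only the spread between these arrays.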

Additional observations from a re-analysis of the deposited data

How the results depend on the processing

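No early-response gene passed under any setting that was run, for the mean or for array 2. Over all genes, 298 passed the test of the mean, against 76 with the arrays scaled to 1 median absolute deviation, 181 with robust eBayes and 0 with a dye term (6390 at an unadjusted p under 0.05). Without replicate 1, 2 or 3, 0 genes passed limma's adjusted test each time, while 2805, 7328 and 2544 genes, 12, 8 and 5 of the 34 among them, had an unadjusted p under 0.05. Fewer arrays or a dye term also leave fewer degrees of freedom. The cause of these changes was not tested. The median mean ratio of the 34 genes was 0.17, and lay between 0.04 (without replicate 3) and 0.41 (without replicate 1). Their median array 2 difference was 0.43, or 0.19 without replicate 1 and 0.70 without replicate 3, both with no test. With a dye term the mean turned its sign for ERF104 (0.105) and ATL2 (0.085). Leaving out 1 replicate gave means on both sides of 0, with the lowest and highest at -0.68 and 0.26 for ERF104, -0.65 and 0.25 for ATL2, -0.24 and 0.69 for ERF2, -0.38 and 0.17 for PUB23, -0.29 and 0.55 for ERF13, and -0.58 and 0.98 for ZAT10. Under quantile normalization the array 2 difference of ATL31 was 0.0117, against -0.005 as reported. Counts of the order of arrays, both as reported and under other settings, were chosen after seeing the data. Array 1 was lowest in 28 to 30 of 34 genes with other scaling or the median of probes, and in 13 of 16 genes with 2 or more probes. The test of the mean ratio is itself paired, since each ratio sets both genotypes of 1 replicate side by side, and no further replicate block could be fitted.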
